A study of Mus musculus with 12 samples.

Results

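The 38 genes described here encode transcription factors of the heart, their cofactors, and the nuclear receptors and coactivators that set the metabolic program of cardiac muscle. They are listed by name, and the list was drawn up with earlier results of these data known. All 38 were found among the 38293 gene identifiers of the count table of mouse embryonic ventricles. Each passed the filter on low counts, so all 38 are among the 13964 genes tested. By role they are 8 core cardiac factors (Nkx2-5, Gata4, Gata5, Gata6, Hand2, Tbx2, Tbx3, Tbx5), 5 cofactors (Zfpm1, Zfpm2, Hopx, Smyd1, Smarcd3), 5 genes of the MADS box and myocardin group (Mef2a, Mef2c, Mef2d, Srf, Myocd), 4 Iroquois genes (Irx1, Irx2, Irx4, Irx5), 7 FOX, TEAD, MEIS and NFAT genes (Foxp1, Foxo1, Tead1, Tead3, Meis1, Meis2, Nfatc3) and 9 metabolic regulators (Esrra, Esrrb, Esrrg, Ppara, Rxra, Rarb, Ppargc1a, Ppargc1b, Klf15).

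Ventricles were collected at stage E15.5 of embryonic development from 4 genotypes, with 3 pools per genotype and 4 pairs of ventricles in each pool, and polyadenylated RNA was sequenced. The Mib1 mutant carries the stop allele R530X over a floxed Mib1 allele together with 1 copy of Tnnt2-Cre, a transgene in which a cardiac troponin T promoter drives Cre recombinase in cardiomyocytes. Its Cre control has 1 floxed and 1 normal Mib1 allele with the same Cre, so its cardiomyocytes can also lose 1 copy of Mib1, whereas the R530X allele of the mutant is present in every cell. The triple heterozygote has 1 copy of each of 3 alleles, Mib1 R530X, Apcdd1 V150I and an Asxl3 methionine-to-valine change that the genotype label gives as M1415V and the design text as M1361V, and it was compared with wild type (WT). The labels do not say whether the pools of a group shared litters, so p-values measure the spread between pools.

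Mib1 is a ubiquitin ligase that acts in the cell presenting a Notch ligand and is needed for that ligand to activate Notch in its neighbour. In the developing ventricle, Notch signalling takes part in the growth of the inner, trabecular layer and the outer, compact layer of the wall. Nkx2-5, the GATA, T-box, HAND and MEF2 proteins and serum response factor (Srf) bind the promoters of contractile and conduction genes together, often on the same enhancers. The estrogen-related receptors and PPAR alpha, with retinoid X receptor and the PGC-1 coactivators, control genes of mitochondrial respiration and fatty acid oxidation, which the heart comes to rely on after birth.

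Libraries held 10103548 to 22157720 expected counts, with 11 of the 12 at 14774121 or below, so that 1 read was worth 0.0452 to 0.0991 CPM (counts scaled to the library size). Mib1 itself, the gene hit in both models, was at 108, 107 and 101 CPM in the Cre controls and 54.8, 50.1 and 51.8 CPM in the mutants, a log2 fold change of -1.01 (SE 0.0941, edgeR adjusted p = 4.75e-05). In the triple heterozygote it was at 74.0, 57.9 and 74.1 CPM against 145, 126 and 136 CPM in WT, a log2 fold change of -0.99 (SE 0.0918, edgeR adjusted p = 0.000276). Asxl3 and Apcdd1 carry single-residue changes that a read count does not report on, and neither passed the test in either comparison. Cre control 1 and Mib1 mutant 1 had almost no Xist (0.387 and 0.095 CPM, against 71.5 to 458 in the other libraries), and the first principal component, with 26.4% of the variance, separated the 6 libraries with Cre from the 6 without. Summed markers of ventricular cardiomyocytes (8 genes) lay between 29800 and 38500 CPM in every library, and those of hepatocytes between 0.58 and 23.2 CPM, highest in WT 2.

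In the Mib1 mutant, 1 of the 38 regulators changed: Irx2, an Iroquois homeobox gene, fell. Over all genes tested, 1.5% were called at an edgeR adjusted p under 0.05 in this comparison. In the triple heterozygote no regulator was called, where 0.0215% of all genes were, and the same held for the Cre control against WT, where 0.279% were. The test of the difference between the effects of the 2 models called none of the 38 either, against 0.516% of all genes. At an unadjusted edgeR p under 0.05 there were 7 regulators in the Mib1 mutant, 5 in the triple heterozygote, 7 for the difference and 5 for the Cre control against WT, where 14.0%, 8.66%, 13.8% and 8.43% of all genes had one. DESeq2 called 3, 0, 1 and 0 in those 4 comparisons, and limma-voom 1, 0, 0 and 0.

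The fold changes of most regulators were small and their intervals narrow. In the Mib1 mutant 20 of the 38 had a positive and 18 a negative log2 fold change, with a median size of 0.0912 regardless of sign, against 0.119 over all genes tested. The 95% interval lay inside ±0.5 on the log2 scale, which is 1.41-fold, for 28 of the 38 in the Mib1 mutant and for 33 of the 38 in the triple heterozygote, compared with 8961 and 9395 of the 13964 genes tested. The 10 with wider intervals in the Mib1 mutant were Gata5, Tbx2, Tbx3, Myocd, Irx1, Irx2, Irx5, Tead1, Ppara and Klf15. Pools of the Mib1 mutant and the Cre control did not overlap for 5 regulators, Irx1, Irx2, Mef2d and Rarb on the low side and Irx4 on the high side, where 16.6% of all genes had groups that did not overlap. For the triple heterozygote there were 8, with Nkx2-5, Hand2 and Meis1 above WT and Smyd1, Mef2a, Ppara, Rxra and Ppargc1a below it, where 16.9% of all genes had such groups. Between the Cre control and WT there were 9, with Gata4, Smarcd3 and Klf15 higher in the Cre control and Smyd1, Mef2a, Myocd, Esrrg, Ppara and Rxra lower, against 19.1% of all genes.

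**Figure D1:**
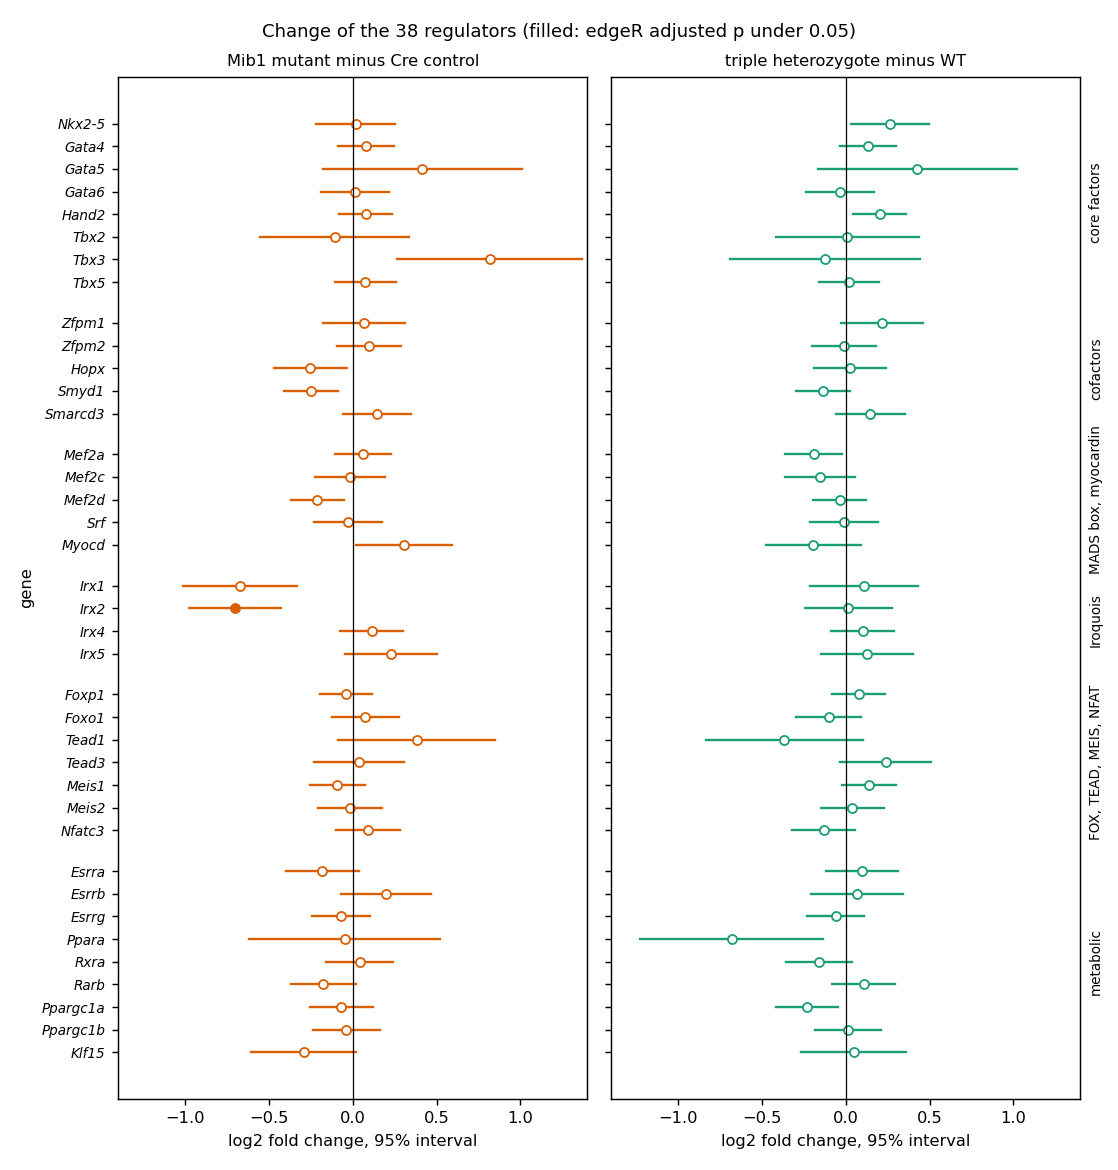
Log2 fold change (horizontal axis) of each of the 38 regulators with its 95% interval, for the Mib1 mutant against the Cre control (left) and the triple heterozygote against WT (right), from 3 pools per group; filled points have an edgeR adjusted p under 0.05. Irx2 in the left panel, at -0.70, is the one filled point, and the widest intervals belong to Tbx3, Gata5, Ppara, Tead1 and Tbx2.

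Levels of different genes were compared per kilobase of exonic length. Hopx, a homeodomain protein that does not bind DNA by itself, stood first at 198 CPM per kilobase over the 12 pools, followed by the muscle-restricted histone methyltransferase Smyd1 at 94.5 and by Srf at 58.6. Gata4 (52.4) and Nkx2-5 (44.2) came next, and Hand2, Mef2a, Gata6, Irx4, Mef2d and Ppargc1a lay between 28.2 and 31.5 CPM per kilobase. At the other end were Gata5 and Tbx3, both at 1.24, Tbx2 at 2.08, Esrrb at 2.60 and Ppara at 2.68 CPM per kilobase. Tbx2 and Tbx3 repress the chamber program in the cushions and the conduction system, and Gata5 is known mainly from the endocardium.

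**Figure D2:**
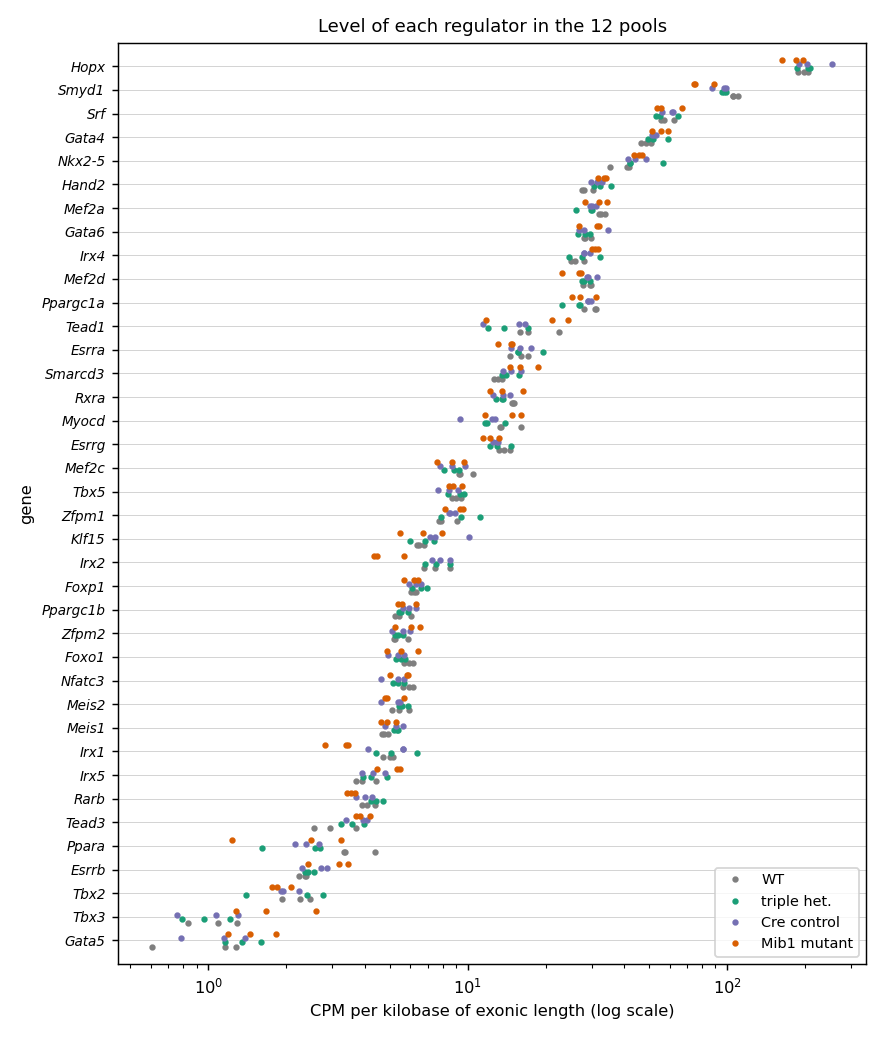
CPM per kilobase of exonic length (horizontal axis, log scale) of the 38 regulators in each of the 12 pools, with genes ordered by their mean and pools coloured by genotype. Hopx lies near 198 and Gata5 and Tbx3 near 1.24, and for most genes the 4 colours overlap.

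Spread between pools of 1 genotype differed widely among the regulators. The SD of log2(CPM + 1) within groups was 0.0764 for Rarb, a retinoic acid receptor, and 0.0774 for Meis1, a TALE homeodomain partner of HOX proteins. It was 0.362 for Tead1 and 0.385 for Ppara. Among genes within 1.5-fold of the same mean level, 5.35% were less variable than Rarb, while 99.6% were less variable than Tead1, 97.1% than Ppara, 95.6% than Tbx3 and 95.3% than Myocd. Those 4 are among the genes with wide intervals in the Mib1 comparison, since the intervals are computed from the spread between pools.

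The Iroquois genes encode homeodomain factors that pattern the ventricle, where Irx4 marks ventricular myocardium as a whole. They lie in clusters. Irx1 (chr13:71957921-71963723, minus strand, GRCm38), Irx2 (chr13:72628820-72634198, plus strand) and Irx4 (chr13:73260479-73269608, plus strand) share the cluster on chromosome 13, and Irx5 (chr8:92357625-92376286, plus strand) belongs to the one on chromosome 8 with Irx3 and Irx6. The promoter windows of 2 genes of the chromosome 13 cluster are shown because they belong to the called gene and to the neighbour in the same cluster that was not called. They run from 250 bases before to 50 after the RefSeq start (GRCm38.p6), read 5′ to 3′ on the gene's strand, and capitals mark a match to the core sequence bound by RBPJ, the DNA-binding partner of Notch.
Irx2, chr13:72628570-72628869, plus strand: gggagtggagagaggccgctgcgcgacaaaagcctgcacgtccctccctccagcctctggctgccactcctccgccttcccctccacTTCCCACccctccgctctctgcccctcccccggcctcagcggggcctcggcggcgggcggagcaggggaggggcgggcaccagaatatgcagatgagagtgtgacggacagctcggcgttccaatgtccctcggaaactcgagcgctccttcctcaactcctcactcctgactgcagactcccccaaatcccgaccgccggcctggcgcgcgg
Irx4, chr13:73260247-73260546, plus strand: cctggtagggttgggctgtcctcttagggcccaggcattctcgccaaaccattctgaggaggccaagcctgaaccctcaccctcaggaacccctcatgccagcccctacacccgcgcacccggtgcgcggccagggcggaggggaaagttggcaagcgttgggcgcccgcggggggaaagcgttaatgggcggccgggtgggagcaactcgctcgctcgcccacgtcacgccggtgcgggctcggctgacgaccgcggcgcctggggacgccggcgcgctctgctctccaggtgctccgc
The motif searched for RBPJ was GTGGGAA on both strands. In the Irx2 window it has 1 match, on the minus strand, from 163 to 157 bases before the start, and 6.38% of all 32851 RefSeq promoter windows of this length hold one. The Irx4 window has no match to this or to the 6 other motifs searched.

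Irx2 was lower in every Mib1 mutant pool. It was at 25.7, 28.1 and 23.9 CPM in the Cre controls and at 14.6, 18.7 and 14.3 CPM in the mutants. All mutant pools lay below all Cre controls, and also below the triple heterozygotes (24.7, 28.1 and 22.5 CPM) and WT (24.5, 22.3 and 28.1 CPM). The level was 1.63-fold lower, a log2 fold change of -0.70 (SE 0.128, 95% interval -0.98 to -0.43, edgeR adjusted p = 0.00961). In these bulk libraries, fewer cells that express the gene and less RNA per cell cannot be told apart. The adjusted p was 0.0527 without Cre control 2, 0.0511 without Mib1 mutant 3, and 0.112 without both libraries that lacked Xist. In 7 of the 12 libraries the expected count of Irx2 was not a whole number, so some reads were shared between genes by the authors' quantification.

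Irx1, a neighbour of Irx2 in the same cluster, was at 10.8, 14.7 and 14.7 CPM in the Cre controls and 7.41, 8.86 and 9.05 CPM in the mutants. These groups did not overlap either, and the log2 fold change of -0.67 (SE 0.16) was close to that of Irx2, with an edgeR adjusted p of 0.0505 that just missed the threshold. It passed in 9 of 23 alternative settings, among them DESeq2 and median-ratio size factors. Irx4 was at 73.0, 73.3 and 77.2 CPM in the Cre controls and 80.4, 78.6 and 82.9 CPM in the mutants. The mutants were the higher group here, by a log2 fold change of 0.11 (SE 0.0882, edgeR adjusted p = 0.624). Irx5 was at 13.5, 12.2 and 15.0 CPM in the Cre controls and 14.0, 17.2 and 16.7 CPM in the mutants, groups that overlapped (log2 fold change 0.23, edgeR adjusted p = 0.464).

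The balance among the 4 Iroquois genes moved with those levels. Per kilobase, Irx4 made up 62.2% ± 1.21 (SD, n = 3) of their sum in the Cre controls and 70.2% ± 2.54 in the mutants. The share of Irx2 was 17.2% ± 1.63 in the Cre controls and 11% ± 1.60 in the mutants, and that of Irx1 was 11.1% ± 1.56 and 7.29% ± 0.568. WT and triple heterozygote pools had Irx4 shares of 60.9% to 62.1%, within the range of the Cre controls (60.9% to 63.2%) and below all mutant pools (67.4% to 72.4%). Triple heterozygotes had log2 fold changes of Irx1, Irx2, Irx4 and Irx5 of 0.11, 0.02, 0.10 and 0.13, all with intervals inside ±0.5. The effects in the 2 models differed by -0.72 for Irx2 (SE 0.177, edgeR adjusted p = 0.0998) and by -0.78 for Irx1 (SE 0.221, edgeR adjusted p = 0.164), so a difference between the models was not shown for either.

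Between Irx1 and Irx2 lies Gm20554 (chr13:72626213-72628564, minus strand), a long intergenic noncoding RNA that starts next to Irx2 and is read in the opposite direction. It is no member of the list and was picked after its values were seen. It was at 6.76, 6.11 and 7.57 CPM in the Cre controls and 3.90, 2.89 and 2.67 CPM in the mutants, and the groups did not overlap. It fell 2.17-fold, a log2 fold change of -1.12 (SE 0.19, edgeR adjusted p = 0.0059), and it was called in all 23 alternative settings. Triple heterozygotes were at 6.53, 5.38 and 4.95 CPM and WT at 5.37, 5.05 and 4.52 CPM, all above the mutants. The Cre controls were above every WT pool, by 0.46 on the log2 scale (SE 0.179, edgeR adjusted p = 0.505). The 2.17-fold fall is thus measured from the higher of the control groups. The Irx2 promoter window covers the gap between the starts of the 2 genes and the first bases of Irx2. Within 500000 bases of the clusters, no other tested gene on chromosome 13 or chromosome 8 was called, including Irx3 (log2 fold change 0.25, edgeR adjusted p = 0.412) and Irx6 (0.76, edgeR adjusted p = 0.286).

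**Figure D3:**
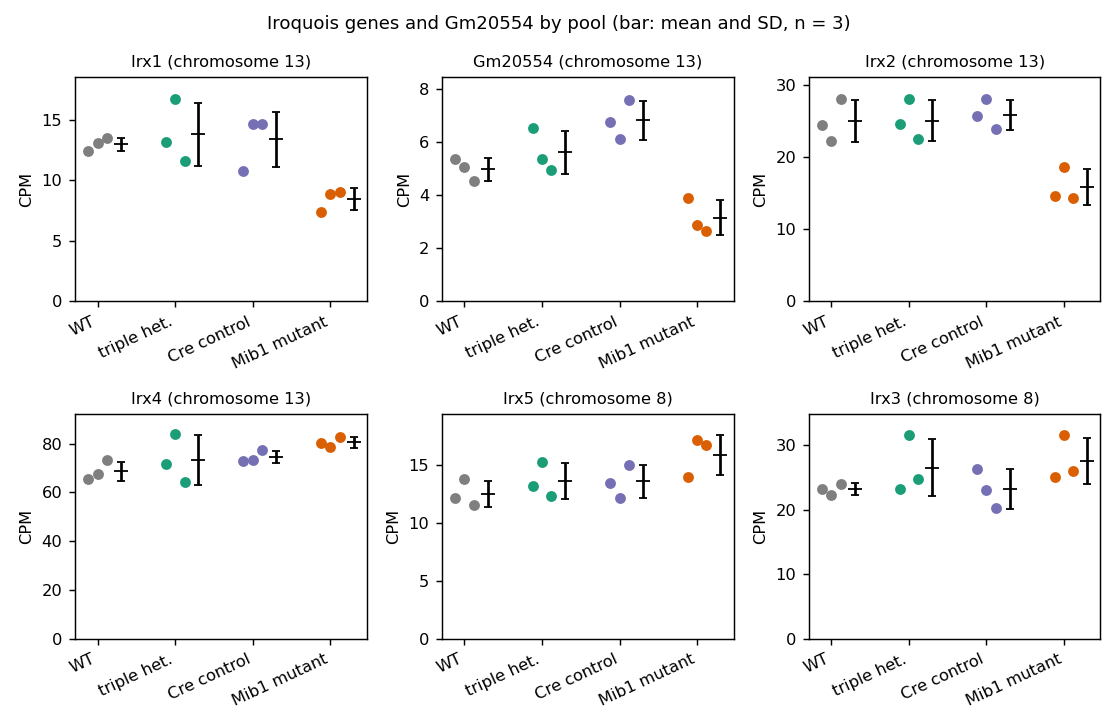
CPM (vertical axis, from 0) of the Iroquois genes and Gm20554 in each pool by genotype, with 1 point per pool and bars for mean and SD (n = 3). The Mib1 mutant points of Irx1, Gm20554 and Irx2 lie below those of every other genotype, while those of Irx4, Irx5 and Irx3 do not.

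Markers of other cells moved in the same comparison, and their part in the Iroquois values was not tested. Of 8 ventricular cardiomyocyte markers, 7 had a negative log2 fold change in the Mib1 mutant (median -0.16), the positive one being Irx4 itself, and their summed level was 29800 to 34800 CPM against 33700 to 38500 CPM in the Cre controls. The 8 fibroblast and epicardial markers were all positive (median 0.22), at sums of 3710 to 4500 CPM against 3340 to 3410 CPM. The 6 leukocyte markers were all negative (median -0.63), and 2 of them, C1qb and Lyz2, were called lower. Of 8 atrial markers 5 were negative and 3 positive (median -0.135), and 3 were called lower, Nppa, Kcnj3 and Bmp10. None of the 8 endothelial markers was called.

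The core cardiac factors showed no call in either model. Nkx2-5, the homeodomain factor at the base of the cardiac program, had a log2 fold change of 0.02 in the Mib1 mutant with an interval from -0.22 to 0.25. Gata4 (0.08), Gata6 (0.01), Hand2 (0.08) and Tbx5 (0.08), which act with it on chamber genes, also had intervals inside ±0.5. Gata4 made up 63.0% ± 3.12 of the per-kilobase sum of the 3 GATA genes in the Cre controls and 63.6% ± 3.50 in the mutants, and Gata5 made up 1.34% ± 0.412 and 1.71% ± 0.322. Tbx2 had log2 fold changes of -0.11 in the Mib1 mutant and 0.01 in the triple heterozygote.

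Tbx3, a repressor of the working-muscle program in the conduction system, had the largest positive log2 fold change of the 38 in the Mib1 mutant. It was at 5.02, 8.59 and 7.10 CPM in the Cre controls and 11, 17.2 and 8.45 CPM in the mutants. The lowest mutant pool lay within the range of the Cre controls, and pools of the same genotype differed widely. The log2 fold change was 0.82 (SE 0.258, edgeR adjusted p = 0.143), and it passed in 2 of 23 alternative settings, the one without a filter on low counts and the one with a covariate for transcript length. Tbx3 in the triple heterozygote was at 5.26, 6.37 and 8.03 CPM, within the WT range of 5.55 to 8.55 CPM or just below it.

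In the triple heterozygote the core factors with the smallest p-values were Hand2 and Nkx2-5. Hand2, a bHLH factor of the ventricles, was at 64.8, 65.9 and 71.6 CPM in WT and 76.0, 83.8 and 72.3 CPM in the triple heterozygotes. Nkx2-5 was at 60.7, 72.0 and 70.7 CPM in WT and 72.5, 97.3 and 72.8 CPM in the triple heterozygotes. For both genes every triple heterozygote pool was above every WT pool, by less than 1 CPM between the nearest pools, and for both the highest pool was triple heterozygote 2. The log2 fold changes were 0.20 for Hand2 (SE 0.0744) and 0.26 for Nkx2-5 (SE 0.11), and both had an edgeR adjusted p of 0.565.

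Among the cofactors, Smyd1 and Hopx were lower in the Mib1 mutant without passing the adjusted test. Smyd1, needed for growth of the ventricles, was at 448, 397 and 443 CPM in the Cre controls and 342, 340 and 403 CPM in the mutants, so that 1 mutant pool lay above the lowest Cre control. Its log2 fold change was -0.25 (SE 0.0758, edgeR adjusted p = 0.128). Cre controls were themselves below WT (502, 479 and 477 CPM), by -0.18 (SE 0.0756, edgeR adjusted p = 0.551), and triple heterozygotes, at 449, 436 and 442 CPM, were below all WT pools. The 2 lowest of the 12 values of Smyd1 were those of Mib1 mutants 1 and 2. Hopx, which restrains Srf and promotes the myocyte fate, ranged from 286 to 386 CPM in the Cre controls and from 247 to 296 CPM in the mutants (log2 fold change -0.25, edgeR adjusted p = 0.263). The GATA cofactors Zfpm1 (0.07) and Zfpm2 (0.10) and the chromatin remodelling subunit Smarcd3 (0.15) had intervals inside ±0.5.

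The MADS box factors Mef2a, Mef2c, Mef2d and Srf bind contractile gene promoters, and myocardin (Myocd) is a coactivator of Srf. Mef2d was at 173, 174 and 188 CPM in the Cre controls and 163, 138 and 160 CPM in the Mib1 mutants. The groups did not overlap, and the log2 fold change was -0.21 (SE 0.0744, edgeR adjusted p = 0.19). Mef2a had a log2 fold change of 0.06 and Mef2c of -0.02 in the same comparison, so Mef2d was 39.0% ± 0.278 of the per-kilobase sum of the 3 MEF2 genes in the mutants and 43.2% ± 1.64 in the Cre controls. The lowest Cre control share, 41.4%, was above the highest mutant share, 39.1%. In the triple heterozygote the MEF2 gene with the smallest p was Mef2a instead, at 440, 383 and 443 CPM against 495, 471 and 478 CPM in WT. Its groups did not overlap (log2 fold change -0.19, SE 0.0792, edgeR adjusted p = 0.565).

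Srf was between 154 and 194 CPM in all pools, with log2 fold changes of -0.03 in the Mib1 mutant and -0.01 in the triple heterozygote. Myocd was at 80.0, 59.7 and 82.1 CPM in the Cre controls and 95.5, 75.1 and 103 CPM in the mutants, groups that overlapped, with a log2 fold change of 0.30 (SE 0.134, edgeR adjusted p = 0.315). That value was 0.17 without Cre control 2. WT pools, at 103, 86.1 and 85.5 CPM, were all above the Cre controls. The log2 fold change of the Cre control against WT was -0.30 (SE 0.134, edgeR adjusted p = 0.572), the same size as that of the mutant against the Cre control with the sign turned.

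None of the FOX, TEAD, MEIS and NFAT genes passed the adjusted test in any of the 4 comparisons. Tead1, the DNA-binding partner of the Hippo pathway coactivator YAP, had the largest difference of this group and also the largest spread between pools of 1 genotype relative to genes of like level. It was at 225, 156 and 213 CPM in the Cre controls, 287, 159 and 330 CPM in the mutants, 163, 188 and 232 CPM in the triple heterozygotes and 304, 215 and 232 CPM in WT. Mib1 mutant 2 was at about the level of the lowest Cre control while the other mutant pools were above every Cre control. Log2 fold changes were 0.38 in the Mib1 mutant (SE 0.22, edgeR adjusted p = 0.475) and -0.37 in the triple heterozygote (SE 0.22, edgeR adjusted p = 0.622), and the effects differed by 0.75 (SE 0.311, edgeR adjusted p = 0.312).

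The level of Tead1 followed the balance of long and short transcripts in each library. Its annotated exons add up to 13570 bases, and none of its 12 expected counts was a whole number. For each library the median log2 deviation of 2343 protein-coding genes with over 8000 exonic bases was compared with that of 646 genes with under 1500. That balance was highest in Mib1 mutant 1 (0.24), Mib1 mutant 3 (0.23) and WT 1 (0.21), the 3 pools in which Tead1 was highest. It was lowest in Cre control 2 (-0.27), triple heterozygote 2 (-0.26), triple heterozygote 1 (-0.16) and Mib1 mutant 2 (-0.14), the 4 pools in which Tead1 was lowest. The 3 highest and the 4 lowest pools of Myocd were these same pools. With the balance as a covariate, a setting added after the data were seen, the difference between the effects on Tead1 went from 0.75 to -0.07 on the log2 scale, and the log2 fold change of Myocd in the Mib1 mutant from 0.30 to 0.10. Irx2 had a log2 fold change of -0.57 in that fit (edgeR adjusted p = 0.0125), and Irx1 had -0.53 (edgeR adjusted p = 0.111). The balance was computed from these same libraries, with Tead1 among the long genes, and its extremes were unevenly spread over the genotypes. An effect of the library and an effect of the genotype therefore cannot be told apart in that fit, and the cause of the balance was not tested.

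**Figure D4:**
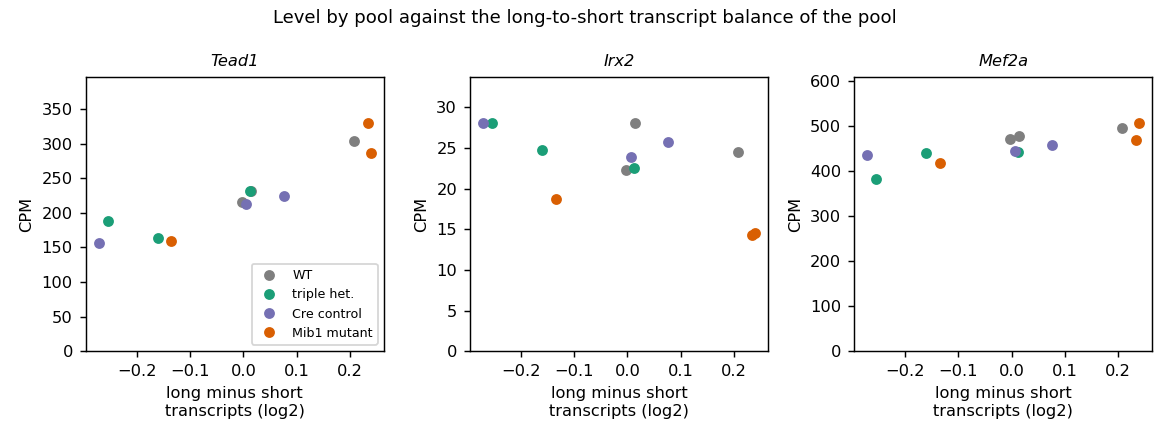
CPM (vertical axes, from 0) of Tead1, Irx2 and Mef2a in each of the 12 pools against the library's median log2 deviation of long minus short transcripts (horizontal axes), coloured by genotype. The lowest Tead1 value, 156 CPM, lies at -0.27 on the axis and the highest, 330 CPM, at 0.23. The 3 Mib1 mutant points of Irx2 are its 3 lowest, with 2 at the right end and 1 at -0.14.

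The other genes of this group had smaller log2 fold changes. Tead3 ranged from 17.2 to 28.3 CPM over all pools, with log2 fold changes of 0.04 in the Mib1 mutant and 0.24 in the triple heterozygote. Foxp1 (-0.04), a repressor that supports growth of the compact layer, Foxo1 (0.07), which acts under insulin signalling, Meis1 (-0.09), Meis2 (-0.02) and Nfatc3 (0.09) had intervals inside ±0.5 in the Mib1 mutant. Meis1 was between 49.4 and 52.1 CPM in WT and between 54.5 and 56.5 CPM in the triple heterozygote, groups that did not overlap (log2 fold change 0.14, edgeR adjusted p = 0.61). Expected counts that were not whole occurred in 10 libraries for Meis1, 9 for Meis2, 7 for Irx5, 6 for Foxp1 and 1 each for Tbx5, Irx4 and Tead3.

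Of the 9 metabolic regulators, none was called in either model, and 7 had a negative log2 fold change in the Mib1 mutant (median -0.07, range -0.29 to 0.20). Esrra, the estrogen-related receptor that works most closely with PGC-1 alpha, ranged from 64.5 to 77.1 CPM in the Cre controls and from 57.2 to 64.9 CPM in the mutants (log2 fold change -0.18, edgeR adjusted p = 0.463). Esrrg, the fetal and perinatal form in heart, had a log2 fold change of -0.07, Ppargc1a of -0.07 and Ppargc1b of -0.04, each with an interval inside ±0.5. Rarb pools did not overlap, at 19.6, 21.2 and 22.5 CPM in the Cre controls and 18.7, 18.1 and 19.3 CPM in the mutants, and the log2 fold change was -0.18 (SE 0.0911, edgeR adjusted p = 0.411). Klf15, a Krüppel-like factor of amino acid and lipid use, was at 20.0, 28.2 and 20.8 CPM in the Cre controls and 22.2, 18.7 and 15.3 CPM in the mutants, groups that overlapped (log2 fold change -0.29, edgeR adjusted p = 0.395). WT pools of Klf15, at 17.8, 18.1 and 19.0 CPM, were all below the Cre controls, which differed from them by 0.33 on the log2 scale (SE 0.146, edgeR adjusted p = 0.577). Rxra, the partner of PPAR alpha and of retinoic acid receptors, had 0.04, and Esrrb 0.20.

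Ppara and Ppargc1a had the smallest p-values of this group in the triple heterozygote. Ppara, the fatty acid receptor, was at 16.9, 12.8 and 12.9 CPM in WT and 6.17, 9.90 and 10.3 CPM in the triple heterozygotes, which did not overlap. Its log2 fold change was -0.68 (SE 0.255, edgeR adjusted p = 0.565). The Cre controls, at 10.2, 8.24 and 9.13 CPM, were also below every WT pool, by -0.63 (SE 0.257, edgeR adjusted p = 0.532), and the 12 pools spanned 4.75 to 16.9 CPM. Ppargc1a, which encodes PGC-1 alpha, was at 205, 185 and 204 CPM in WT and 179, 152 and 177 CPM in the triple heterozygotes (log2 fold change -0.23, SE 0.0868, edgeR adjusted p = 0.565). Rxra pools were at 81.0 to 82.4 CPM in WT and 70.4 to 75.0 CPM in the triple heterozygotes (log2 fold change -0.16, edgeR adjusted p = 0.617). Summed red cell markers were 7110 to 8330 CPM in the triple heterozygotes and 4380 to 5150 CPM in WT, with 7 of 7 tested genes positive (median 0.63) and Hba-a1 and Hba-a2 called higher. With those genes left out before scaling, still none of the 38 regulators was called in that comparison.

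The genes that the metabolic regulators are known to drive were mostly lower in the Mib1 mutant, and whether they moved more than the regulators was not tested. Of 24 tested targets of the estrogen-related receptors, PPAR alpha and PGC-1, 21 had a negative log2 fold change (median -0.24). Over all genes 48.8% were negative and the median was 0.00. Of the 24, 5 fell, where 1.5% of all genes were called, and 19 had an unadjusted edgeR p under 0.05 (14.0% of all genes). The called genes were Hadhb (-0.34, edgeR adjusted p = 0.00692) and Acadm (-0.33, 0.0233), enzymes of fatty acid oxidation, the fatty acid transporter Cd36 (-0.47, 0.0289), the acyl-CoA synthetase Acsl1 (-0.53, 0.0289) and, outside the rule for named genes, the carnitine transferase Cpt1b (-0.33, 0.0466). Acadm, for example, was at 344, 379 and 360 CPM in the Cre controls and 279, 303 and 278 CPM in the mutants, with no overlap. Among triple heterozygotes 21 of the 24 were also negative, with a median of -0.11, and none was called (8 at an unadjusted edgeR p under 0.05, where 8.66% of all genes had one). Cd36 and Acsl1 had log2 fold changes there of -0.45 (SE 0.1, edgeR adjusted p = 0.326) and -0.54 (SE 0.113, edgeR adjusted p = 0.262). The effects in the 2 models differed by -0.01 for Cd36 (95% interval -0.32 to 0.29) and by 0.01 for Acsl1 (-0.33 to 0.35). In the triple heterozygote, Acsl1 was called in 5 of 23 alternative settings and Cd36 in 2, DESeq2 among them for both. Hadhb, Acadm and Cpt1b, at -0.18, -0.19 and -0.12, were called there in none. Of 30 other nuclear receptors and coregulators none was called in either model, with the smallest adjusted p in the Mib1 mutant for Perm1, a muscle regulator of the same targets (-0.35, edgeR adjusted p = 0.0878), and 3 at an unadjusted p under 0.05 (14.0% of all genes).

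Several of these target calls depended on single libraries. Hadhb was called with any 1 of the 12 libraries left out. Without Cre control 2 or 3 or Mib1 mutant 1 or 3, Acadm had an edgeR adjusted p of 0.0671 to 0.118. Without any 1 of the 3 Cre controls, Mib1 mutant 2 or 3 or WT 2, Cd36 had 0.051 to 0.117 and Acsl1 had 0.0502 to 0.118. For Cpt1b the call was lost with any library left out except triple heterozygotes 1 and 2, at 0.0601 to 0.211. In a fit of only the 6 libraries compared, all 5 missed the threshold, at 0.0762 to 0.149.

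Promoter windows are shown for a called target of each kind, 1 metabolic and 1 of the core factors, with capitals for matches to the binding motifs of their regulators (RefSeq, GRCm38.p6, read 5′ to 3′ on the gene's strand).
Acadm, chr3:153944594-153944893, minus strand: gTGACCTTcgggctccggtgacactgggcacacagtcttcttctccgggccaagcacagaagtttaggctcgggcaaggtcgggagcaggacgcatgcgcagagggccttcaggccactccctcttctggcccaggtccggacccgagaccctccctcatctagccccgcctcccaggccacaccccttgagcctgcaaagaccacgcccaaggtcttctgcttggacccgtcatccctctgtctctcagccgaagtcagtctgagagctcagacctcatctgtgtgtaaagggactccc
Nppa, chr4:148000472-148000771, plus strand: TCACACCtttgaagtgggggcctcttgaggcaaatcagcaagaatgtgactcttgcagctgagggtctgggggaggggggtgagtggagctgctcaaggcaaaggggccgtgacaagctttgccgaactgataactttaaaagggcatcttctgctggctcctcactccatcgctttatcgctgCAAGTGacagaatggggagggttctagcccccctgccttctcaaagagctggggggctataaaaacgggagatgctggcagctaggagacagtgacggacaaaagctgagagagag
In the Acadm window the estrogen-related receptor motif AAGGTCA has 1 match on the minus strand, 249 to 243 bases before the start, and 4.72% of all promoter windows hold it. In the Nppa window the NKX2-5 motif CAAGTG matches on the plus strand 66 to 61 bases before the start (13.6% of windows), and the T-box motif GGTGTGA matches on the minus strand 250 to 244 bases before it (3.98%). The other motifs searched on both strands were GGAATG for TEAD (14.7%), AGATAA for GATA (11.2%) and the CArG box of Srf (1.63%), and none of the printed matches overlaps another. RefSeq gave 40 windows for 27 of the 38 regulators. A match was found in 7 of the 40 for TEAD, 6 for NKX2-5, 3 for RBPJ, 2 each for the estrogen-related receptors and the CArG box, and 1 each for GATA and T-box. The CArG box matches were in Srf itself and in Hopx. A match describes these letters and is no evidence of binding. No windows were matched for Tbx5, Tead1, Gata4, Tbx2, Gata6, Ppargc1b, Irx5, Tbx3, Zfpm2, Irx1 and Myocd.

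Targets of the cardiac factors fell in 2 of 24 cases in the Mib1 mutant, where 1.5% of all genes were called in either direction. Of the 24, 19 were negative (median -0.14), against 48.8% of all genes, and 13 had an unadjusted edgeR p under 0.05 (14.0% of all genes). Myl2, Myl3, Myh7, Tnni3, Actn2 and Tnnt2 on this list are also ventricular markers, and Nppa is also an atrial marker. The part of cell make-up in these target values was not tested. The called genes were the connexin 40 gene Gja5 (-1.21, SE 0.142, edgeR adjusted p = 0.000291) and Nppa, which encodes atrial natriuretic peptide (-1.41, SE 0.233, edgeR adjusted p = 0.00485). Both are classic targets of Nkx2-5 and Tbx5, whose own log2 fold changes were 0.02 and 0.08. Gja5 and Nppa are also repressed by Tbx3, which was not called (0.82, edgeR adjusted p = 0.143). The part of these factors in the values of Gja5 and Nppa was not tested. Gja5 was called in all 23 alternative settings, whereas Nppa missed the threshold in the fit of only the 6 libraries compared (edgeR adjusted p = 0.0562). Nppa was at 841, 887 and 810 CPM in the Cre controls and 175, 481 and 299 CPM in the mutants, with every mutant pool below every Cre control. The atrial markers Kcnj3 and Bmp10 fell as well, but 3 of the 8 atrial markers had a positive log2 fold change, up to 0.61. Summed atrial markers were 971 to 1710 CPM in the mutants against 1840 to 1890 CPM in the Cre controls. Nppa makes up a large part of that sum, so the sum does not show a fall of atrial markers apart from Nppa. Among 31 other cardiac transcription factors tested, Tbx20, a T-box factor of the working myocardium, rose by 0.32 (SE 0.0671, edgeR adjusted p = 0.0251) and no other was called. Its adjusted p was 0.0502 to 0.118 without Cre control 1, 2 or 3 or Mib1 mutant 1, and 0.109 with only the libraries compared.

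Targets of Srf and myocardin rose in 2 of 13 cases (median 0.31), and none was called lower, where 1.5% of all genes were called in either direction. Of the 13, 10 were positive, and 7 had an unadjusted edgeR p under 0.05 (14.0% of all genes). The called genes were Tagln, a smooth muscle actin-binding protein (1.37, SE 0.149, edgeR adjusted p = 0.000179), and caldesmon (Cald1; 0.36, edgeR adjusted p = 0.0444). Tagln was itself lower in the Cre control than in WT, by -0.45 (edgeR adjusted p = 0.406), a change called in 1 of 23 alternative settings. The Cald1 call was lost at 0.0523 to 0.211 without any 1 of 9 libraries, all but Cre control 1 and triple heterozygotes 2 and 3, and at 0.153 with only the libraries compared. The most negative value of the list was that of the smooth muscle myosin gene Myh11, which was at 1.84, 3.72 and 1.69 CPM in the Cre controls and 1.43, 1.12 and 0.259 CPM in the mutants. These groups did not overlap, and the log2 fold change was -1.37 (SE 0.443, edgeR adjusted p = 0.153). Tagln and Cald1 also occur in smooth muscle. The 6 markers of smooth muscle cells and pericytes (Myh11, Cnn1, Rgs5, Pdgfrb, Kcnj8, Abcc9) had summed levels of 564 to 646 CPM in the mutants and 563 to 585 CPM in the Cre controls. Of these markers 4 were negative, none was called, and log2 fold changes ran from -1.37 for Myh11 to 0.47 for Cnn1, both of which are on the target list too. Their part in the target values was not tested. Of 10 TEAD targets 9 were positive (median 0.21), where 48.8% of all genes were negative, and 1 was called, against 1.5% of all genes. This was Ccn2, a matrix-associated signalling protein, which rose by 0.65 (SE 0.138, edgeR adjusted p = 0.0267). Its edgeR adjusted p was 0.093 without Cre control 1, 0.134 without Cre control 3 and 0.112 with only the libraries compared. Of the 10 TEAD targets, 5 had an unadjusted edgeR p under 0.05 (14.0% of all genes). None of 13 targets of Foxo1 and Klf15 was called, and 2 had an unadjusted edgeR p under 0.05, against 14.0% of all genes. None of these 3 lists had a call in the triple heterozygote, with medians of 0.06 for Srf and myocardin, -0.03 for TEAD and -0.05 for Foxo1 and Klf15.

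**Figure D5:**
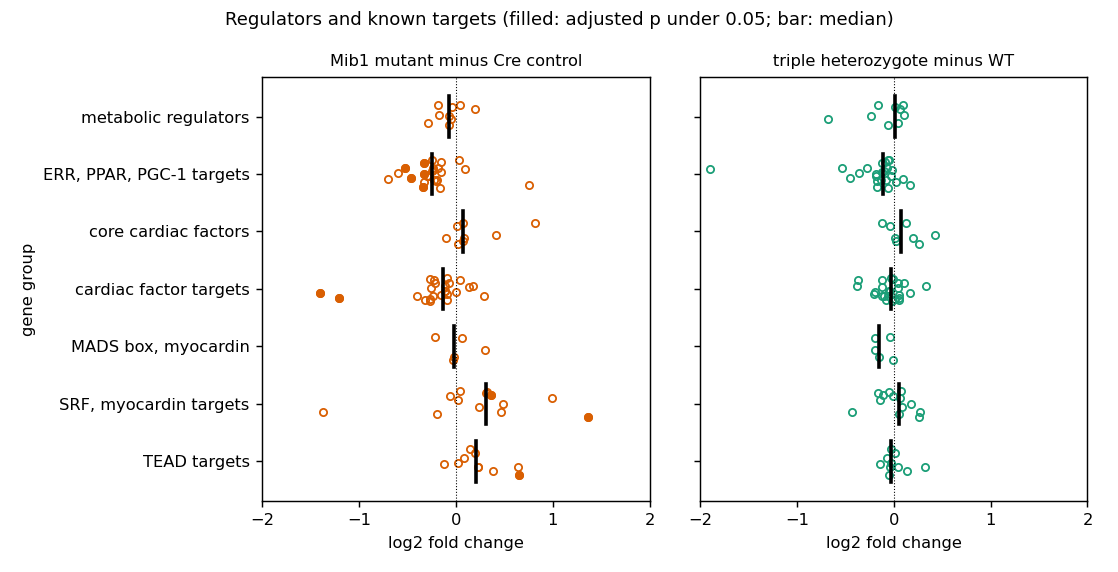
Log2 fold change (horizontal axis) of the regulators of 3 groups and of their known targets, with 1 point per gene, for the Mib1 mutant against the Cre control (left) and the triple heterozygote against WT (right); filled points have an edgeR adjusted p under 0.05 and the vertical bars are medians. In the left panel the targets of the estrogen-related receptors, PPAR and PGC-1 have a median of -0.24 and the metabolic regulators one of -0.07.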

How the data were processed

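The authors deposited 1 table of expected counts per gene, which the submitters' processing notes attribute to RSEM after bcl2fastq 2.20.0.422 and cutadapt on GRCm38. Reads were 60-base single reads from a directional kit, per the labels' protocols. Whether counting used the strand is not given in the sources used here. Of all values 9.64% were not whole within 1e-06, and for the 38 regulators 11.84%. Columns were assigned by name, and those named MUT were taken as the triple heterozygote because the other 3 names matched the other genotypes.

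Expected counts were rounded and filtered with filterByExpr (13964 of 38293 identifiers, holding 99.9% of counts), scaled by TMM and fitted with edgeR 4.0.16 (quasi-likelihood F test, two-sided, 1 mean per group over all 12 libraries, no covariate) under R 4.3.3. Adjusted p is Benjamini-Hochberg over all genes tested, with a threshold of 0.05. SE and 95% intervals come from that fit, and CPM uses TMM library sizes. Precision is limited by 3 pools per group, and 1 read sets the floor of a level. Symbols and exonic lengths come from GENCODE M21 (36345 identifiers matched). The procedure was tested on simulated data.

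The regulators, gene lists and markers were chosen with earlier results of these data known. Values in every pool were to be given for regulators called in any comparison, or with an unadjusted p under 0.05 and groups that did not overlap. Of each other list, up to 4 called genes with the smallest p were to be named. The result of 1 of these lists is not reported here. Pool values of Irx4, Irx5, Tbx3, Tead1 and Rarb, and Gm20554, Perm1, Cpt1b and Myh11, were added after their values were seen. Alternatives were median-ratio size factors, no filter, a mean CPM of at least 2, DESeq2 1.42.0, limma-voom (limma 3.58.1), a fit of the 6 libraries of a comparison, a block for the replicate number, a covariate for the sex mix, erythroid genes left out, the pools without Xist left out, each library left out, and a transcript-length covariate added later.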

Additional observations from a re-analysis of the deposited data

Results flagged for a closer look

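For 4 genes that are not among the 38 regulators but lie beside them or are their targets, the effect of the Mib1 mutant genotype differed from that of the triple heterozygote in the edgeR test of the difference. Gm20554, next to Irx2, differed by -1.29 on the log2 scale (adjusted p = 0.0408). Nppa differed by -1.58 (adjusted p = 0.0455), Gja5 by -1.26 (adjusted p = 0.00815) and Tagln by 1.10 (adjusted p = 0.0289). The Cre controls differed from WT by 0.46 for Gm20554 and -0.45 for Tagln on the log2 scale (edgeR adjusted p = 0.505 and 0.406). For Nppa and Gja5 that value was 0.05 and -0.09. The difference for Gja5 passed in all 22 alternative settings that gave it a value. With 1 library left out, the edgeR adjusted p of Gm20554 was above 0.05 for any library but Mib1 mutants 1 and 2 and triple heterozygote 3 (0.0669 to 0.135). That of Nppa (0.0548 to 0.134) and that of Tagln (0.0546 to 0.0991) were above it for any library but Mib1 mutants 1 and 2. With the transcript-length covariate the edgeR adjusted p was 0.232 for Nppa and 0.0953 for Gm20554. For Gm20554 it was also 0.0558 with the sex mix as a covariate and 0.0527 without the pools that lacked Xist.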

How the results depend on the processing

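The count of regulators called in the Mib1 mutant, 1, became 2 with median-ratio size factors, with a mean CPM of at least 2, with the sex mix as a covariate and with the replicate block, 3 with no filter (Irx1, Irx2, Tbx3), with DESeq2 (Irx1, Irx2, Smyd1) and with the transcript-length covariate (Irx2, Smyd1, Tbx3), and 0 without the pools that lacked Xist. It ranged from 0 to 2 with 1 library left out, being 0 without Cre control 2, and without Mib1 mutant 3 the gene called was Smyd1 and not Irx2. For the difference between the effects the count, 0, became 2 with no filter (Irx2 and Tead1) and 1 with DESeq2 (Irx2), and ranged from 0 to 2 with 1 library left out, 2 without Mib1 mutant 2. The counts for the triple heterozygote and for the Cre control against WT were 0 in all settings run, although DESeq2 gave an adjusted p to 25 of the 38 in the triple heterozygote. Irx2 was called in 20 of 23 settings (log2 fold change -0.84 to -0.57), Irx1 in 9, Smyd1 in 3 and Tbx3 in 2, and no called value changed sign. Over all genes, the Mib1 mutant had 210 calls, and its alternatives gave 93 to 476: 93 with only the libraries compared, 476 with no filter, 399 with DESeq2, 318 with the replicate block, 110 without the pools that lacked Xist, and 116 (without Cre control 3) to 415 (without Mib1 mutant 2) with 1 library left out. The triple heterozygote had 3, against 54 with no filter, 30 with DESeq2 and 10 with only the libraries compared. The difference had 72, against 246 with no filter and 163 with DESeq2, and the Cre control against WT had 39, against 144 with no filter and 78 with DESeq2. Deviations from the group means correlated at r of 0.139, 0.256 and 0.049 between Cre controls and Mib1 mutants of the same number. Between those of different numbers r was -0.263 to 0.162. The highest r of these pairs was that of the pools numbered 2 (0.256). Cre control 1 correlated better with Mib1 mutant 3 (0.162) than with Mib1 mutant 1 (0.139). The labels name nothing that a number stands for, so the block rests on numbers alone.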
